A study of Drosophila melanogaster with 24 samples.

Results

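The genes described here are chromatin regulators of Drosophila melanogaster, namely Polycomb and Trithorax group genes, histone methyltransferases and demethylases, histone deacetylases, an acetyltransferase and ATP-dependent nucleosome remodellers. They were chosen by name, as the rows of the authors' deposited table whose gene symbol was 1 of 37 listed symbols. Of these, 36 had a row among the 13234 genes of the table, and HDAC3 was not analysed here. All 36 had an adjusted p-value, so none was removed by a filter on low values.

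RNA was measured in dissected fat body, the insect organ that stores fat and glycogen and secretes yolk and immune proteins, from virgin w1118 females. The labels give 4 groups of 6 libraries, with 25 flies pooled in each library: 11 °C with ethanol, 11 °C with S-methoprene, 25 °C with ethanol and 25 °C with S-methoprene, an analogue of juvenile hormone. All flies were reared at 25 °C, entered their condition within hours of eclosion and stayed there for 25 days, with the vapour (ethanol alone, or S-methoprene dissolved in it) renewed every 2 days. Only flies with the ovary state called for by their group were dissected, regressed ovaries for 11 °C with ethanol and large ovaries for the other groups, so ovary state differs between groups by selection. The authors' deposited table holds 1 comparison, with a mean normalised count, a log2 fold change, its standard error and a p-value for each gene. It has no value per library and names neither the factor compared, nor the positive side, nor the libraries in the fit. Each gene is therefore placed on the positive or the negative side of the comparison, with neither side assigned to a temperature or a treatment, and no spread between libraries can be shown beyond the deposited standard error (SE). Depth per library is unknown. In bulk tissue, fewer cells of a type and less RNA per cell cannot be told apart.

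Polycomb repressive complex 2 (PRC2) methylates lysine residues of histone H3 at silenced genes, and Polycomb repressive complex 1 (PRC1) binds that mark, ubiquitinates histone H2A and compacts chromatin. Trithorax group proteins oppose them, through COMPASS-type complexes that methylate another H3 lysine at active promoters and enhancers, and through remodellers of the Brahma family. Demethylases remove such marks, acetyltransferases and deacetylases set the charge of histone tails, and heterochromatin protein 1 binds methylated H3 in silent repeats. Most of these proteins act in every cell, and much of what is known of them in the fly comes from embryos, imaginal discs and the germline.

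The fat body label was checked first. The yolk protein genes Yp2, Yp3 and Yp1 ranked 3, 4 and 9 by mean normalised count in the authors' deposited table, the fatty acid synthase FASN1 ranked 11 and the lipoprotein gene apolpp 13, while the hexamerin gene Lsp2 (mean 8.37) and Fbp1 (3.38) and Fbp2 (4.20) were low. The 10 fat body genes checked gave 2 positive-side and 5 negative-side calls. Transcripts of other cells were present, with the oenocyte gene Cyp4g1 ranked 1 and the trypsin alphaTry 12. Marker genes of other cell types also differed in the same deposited comparison. Among 14 germline genes there were 6 negative-side calls and 1 positive-side call, with log2 fold changes from -2.06 to 1.52. Of 15 eggshell genes, 8 had an adjusted p, and the calls were 5 negative and 0 positive. Of the 7 eggshell genes without an adjusted p, 6 had a log2 fold change above 0, up to 2.81 with an SE of 2.34 for Cp38, so the list as a whole had no single direction. Muscle genes gave 8 positive and 0 negative of 14, neuronal genes 8 and 0 of 12, hemocyte genes 7 and 0 of 11, midgut genes 2 and 5 of 10 and oenocyte genes 1 and 2 of 7. Of all these markers 1, a neuronal gene, had a mean under 1, and the lists had summed mean counts in the authors' deposited table of 2401 for germline, 2855 for eggshell, 7428 for muscle, 727 for neuronal and 8804 for hemocyte genes. Of the hemocyte sum, Col4a1 alone gave 5993 and srp 813, and whether these counts came from hemocytes was not tested. The part of all these markers in the results on chromatin regulators was not tested.

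Chromatin regulators spanned a wide range of levels. The median of their mean normalised counts was 165, against 81.8 over all genes with an adjusted p. The range per kilobase (kb) of transcript ran from 2.76 mean normalised counts per kb for Kdm4B to 758 for HDAC6, a deacetylase known for acting on tubulin in the cytoplasm. HDAC6 ranked 685 among all genes on this per-length scale. Next came HP1a (FBgn0003607, the Su(var) gene on chromosome arm 2L), which encodes heterochromatin protein 1a, at 193 mean normalised counts per kb, HDAC1 at 185, the remodeller Mi-2 at 120 and dom at 95.1. At the low end, the PRC1 gene Psc stood at 5.68 and the PRC2 gene esc at 13.0 on the same scale, and the median of the 36 genes was 35.3 against 39.5 for all genes with an adjusted p. The table gives no spread for these levels, so neighbours in this order cannot be told apart.

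Most chromatin regulators were not called. At an adjusted p under 0.05 in the authors' deposited table, 13 of 36 were called, which is 36.1%, against 49.0% of all 11399 genes tested. On the positive side 9 were called (25.0%, against 27.0% of all genes), and on the negative side 4 (11.1%, against 22.0%). The median log2 fold change was 0.09, beside 0.07 over all genes tested, and the median size of change regardless of sign was 0.26, beside 0.49 over all genes tested and 0.39 over those with a mean of at least 10. The split of 9 positive to 4 negative depends on scaling. It was 7 to 8 when fold changes were centred on the median of all genes (2679 to 2968 over all genes tested). It was 4 to 10 when each was centred on the median of its transcript length bin, 1 of 5. Over all 11377 genes with a length, that split was 2551 to 2771. The longest bin runs from 3467 to 71382 bases, so genes in it need not be of like length. Centred on length, the median of the 36 genes was -0.21. Called genes with at least a 2-fold change were ash2, Sirt6 and Kdm2, 3 of the 36, beside 2089 of all 11399 genes tested.

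**Figure D1:**
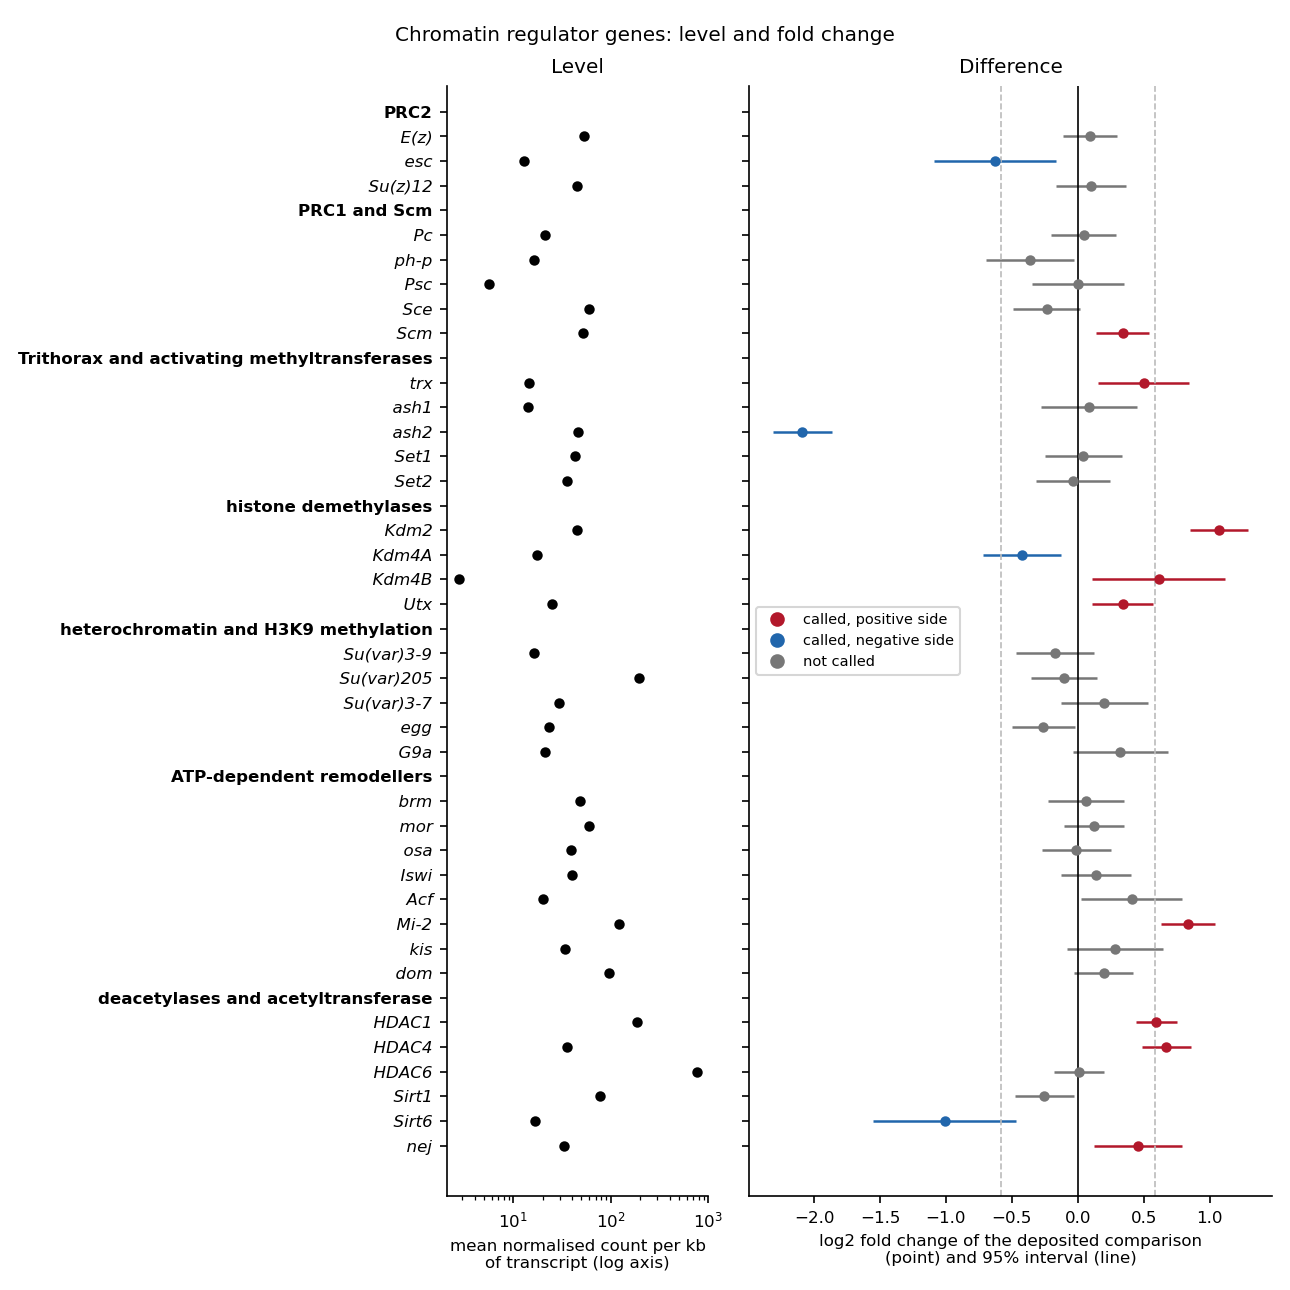
Level (left, mean normalised count per kb of transcript, log axis) and log2 fold change with its 95% interval (right) of the 36 chromatin regulator genes, ordered by role; dashed lines mark a 1.5-fold change and colour marks the call at an adjusted p under 0.05. ash2 stands alone at -2.09, 9 genes are called on the positive side, and the 23 genes not called lie between -0.36 and 0.41.

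The largest difference belonged to ash2, which encodes a core subunit shared by the COMPASS-type complexes. Its mean normalised count was 90.7 and its log2 fold change in the authors' deposited table was -2.09 (SE 0.11), so it was 4.26-fold higher on the negative side, with a 95% interval of 3.65 to 4.97. The adjusted p was 1.33e-71, and ash2 ranked 5 by p among the 13194 genes with a p-value. The gene (FBgn0000139) lies on chromosome 3R from 24650125 to 24653376 on the plus strand in dm6 coordinates, and its exons share 0.268% of their bases with those of another gene of the table.

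No other Trithorax group gene described here had a value near that of ash2. Set1, the methyltransferase of the main COMPASS complex, stood at a log2 fold change of 0.04 (SE 0.15) in the authors' deposited table and was not called (adjusted p = 0.837). The 95% interval of its difference ran from -0.25 to 0.33. trx itself, a methyltransferase of a related complex, was called on the positive side at 0.50 (SE 0.18, adjusted p = 0.0113) in the deposited table. That call was lost under centring on transcript length (log2 fold change 0.16, adjusted p = 0.477) and at an adjusted p under 0.01. The H3 lysine methyltransferases ash1 at 0.09 (SE 0.19) and Set2 at -0.03 (SE 0.14) were not called in the deposited table, although Set2 passed on the negative side after centring on length (log2 fold change -0.38, adjusted p = 0.0207).

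Subunits of the same complexes from a separate list went both ways. The WD-repeat core subunits wds at -0.63 (SE 0.11, adjusted p = 1.77e-08) and Rbbp5 at -0.40 (SE 0.12, adjusted p = 0.00298) were called on the negative side in the authors' deposited table. Dpy-30L1 at -0.11 (SE 0.10) and the CXXC zinc-finger subunit Cfp1 at -0.22 (SE 0.11) were not called there. Hcf, which encodes host cell factor, was called on the positive side at 0.69 (SE 0.12) and so was trr, the methyltransferase of the enhancer-type complex, at 0.62 (SE 0.12) in the deposited table. The 7 genes set together here for COMPASS, after their values had been seen, gave 3 negative-side calls and 1 positive-side call, or 4 and 1 centred on length. Calls over all genes tested were 22.0% negative-side and 27.0% positive-side. The whole list of 15 other Trithorax and histone methylation genes gave 4 positive-side (26.7%) and 2 negative-side (13.3%) calls, beside 27.0% and 22.0%. The positive-side calls of that list included the methyltransferase gpp at 1.07 (SE 0.17) in the deposited table. Centred on length, that list gave 4 positive and 6 negative calls, beside 2551 and 2771 of all 11377 genes with a length.

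All 4 histone demethylase genes were called, 3 positive and 1 negative, beside 27.0% and 22.0% of all genes tested. Centred on length, the calls were 1 positive (Kdm2) and 1 negative (Kdm4A). Kdm2, a JmjC-domain demethylase with an F-box, had the largest positive value among chromatin regulators, a log2 fold difference of 1.07 (SE 0.11, adjusted p = 8.99e-20) in the authors' deposited table at a mean of 239 normalised counts. It was 2.10-fold higher on the positive side, with a 95% interval of 1.80 to 2.45, and lies on chromosome 3R from 9052495 to 9063245 (FBgn0037659, plus strand). Utx, which demethylates the lysine that PRC2 methylates, was 1.27-fold higher on the positive side at 0.34 (SE 0.12, adjusted p = 0.0104) in the deposited table. Relative to the median of its length bin its log2 fold change was -0.00366. The paralogues Kdm4A and Kdm4B, which act on methylated lysines of H3 linked to heterochromatin and to gene bodies, lay on opposite sides in the authors' deposited table. Kdm4A stood at -0.42 (SE 0.15, adjusted p = 0.0129) and Kdm4B at 0.61 (SE 0.26, adjusted p = 0.0357). The Kdm4A call held under 5 of the 8 alternative settings that gave it a value, and was lost at an adjusted p under 0.01.

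Kdm4B is uncertain, since 84.8% of its exonic bases are also exonic in CG17724 on the same strand, and the rule for shared reads is not given in the labels. CG17724 had a log2 fold change of 0.10 (SE 0.18) in the authors' deposited table. The Kdm4B call was lost on centring on all genes (adjusted p = 0.0666) or on length (adjusted p = 0.397). Beside 22.0% negative-side and 27.0% positive-side calls over all genes tested, a list of 8 other demethylase-related genes gave 3 negative-side calls and 1 positive-side call. These were PSR at -0.71 (SE 0.12), JHDM2 at -0.43 (SE 0.14) and JMJD5 at -0.40 (SE 0.10), and CoRest, the partner of a lysine demethylase, at 0.25 (SE 0.09) in the deposited table. Centred on all genes or on length, the list gave 0 positive and 3 negative calls.

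Of the 8 remodeller genes only Mi-2 was called, which is 12.5%, against 49.0% of all genes tested. Centred on length, the calls of the 8 were 1 positive and 1 negative. Mi-2, the ATPase of the NuRD complex, had a mean of 779 normalised counts and a log2 fold difference of 0.84 (SE 0.11, adjusted p = 8.49e-14) in the authors' deposited table. It was 1.79-fold higher on the positive side, with a 95% interval of 1.55 to 2.06, and lies on chromosome 3L from 19882051 to 19910215 (FBgn0262519, minus strand). The Brahma complex genes among these 8 did not pass in the deposited table. The ATPase gene brm stood at 0.06 (SE 0.15), the scaffold gene mor at 0.12 (SE 0.12) and osa at -0.01 (SE 0.13). Their 95% intervals all lay within a 1.5-fold change in either direction. Iswi at 0.14 (SE 0.14) and dom, the ATPase that exchanges the histone variant H2Av, at 0.20 (SE 0.11) were bounded in the same way in the deposited table. After centring on length, osa passed on the negative side (log2 fold change -0.355, adjusted p = 0.01995). Acf, a partner of Iswi, at 0.41 (SE 0.19, adjusted p = 0.0698) and the CHD family gene kis at 0.28 (SE 0.19, adjusted p = 0.201) were not called and not bounded, their intervals reaching 0.79 and 0.65.

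Mi-2 and its NuRD partner HDAC1 shared a direction. HDAC1, a class I deacetylase also known as Rpd3, had a log2 fold difference of 0.59 (SE 0.08, adjusted p = 1.24e-12) in the authors' deposited table, 1.51-fold higher on the positive side with a 95% interval of 1.36 to 1.68. Of the other subunits, simj at 0.43 (SE 0.11, adjusted p = 0.00023) and MTA1-like at 0.31 (SE 0.08, adjusted p = 0.000736) were called on the positive side and MBD-like at 0.03 (SE 0.10) was not called in the deposited table. The histone-binding subunit Caf1-55, which also serves PRC2 and the chromatin assembly factor, was called on the negative side at -0.53 (SE 0.11, adjusted p = 2.88e-06) there. In all, these 6 genes gave 4 positive-side calls and 1 negative-side call, beside 27.0% and 22.0% of all genes tested. Centred on length, the calls were 2 positive and 1 negative, with simj at 0.08 (adjusted p = 0.538) and MTA1-like at -0.0354 (adjusted p = 0.752). They were set together after their values had been seen.

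The 29 listed genes beyond the 8 gave 5 positive-side and 4 negative-side calls, beside 27.0% and 22.0% of all genes tested. The median log2 fold change of the 29 was -0.04. Centred on length, the calls were 1 positive and 7 negative, with a median of -0.20. Nurf-38, an inorganic pyrophosphatase that is also a subunit of the NURF remodeller, was the lowest at -1.36 (SE 0.12, adjusted p = 1.02e-25) in the authors' deposited table, whereas E(bx), the large NURF subunit, stood at 0.60 (SE 0.15) and the remodeller Chd1 at 0.38 (SE 0.08). The calls of E(bx) (adjusted p = 0.142) and Chd1 (adjusted p = 0.768) were lost on centring on length. The Brahma core subunits Snr1 at -0.44 (SE 0.10) and Bap60 at -0.38 (SE 0.10) were called on the negative side in the deposited table. The 11 Brahma genes set together after their values had been seen gave 0 positive-side and 2 negative-side calls, beside 27.0% and 22.0%. After centring on length, the calls of these 11 were 0 positive and 5 negative, beside 2551 and 2771 of all 11377 genes with a length. The differences between genes of 1 complex were not tested, because the covariance of their estimates is unknown.

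**Figure D2:**
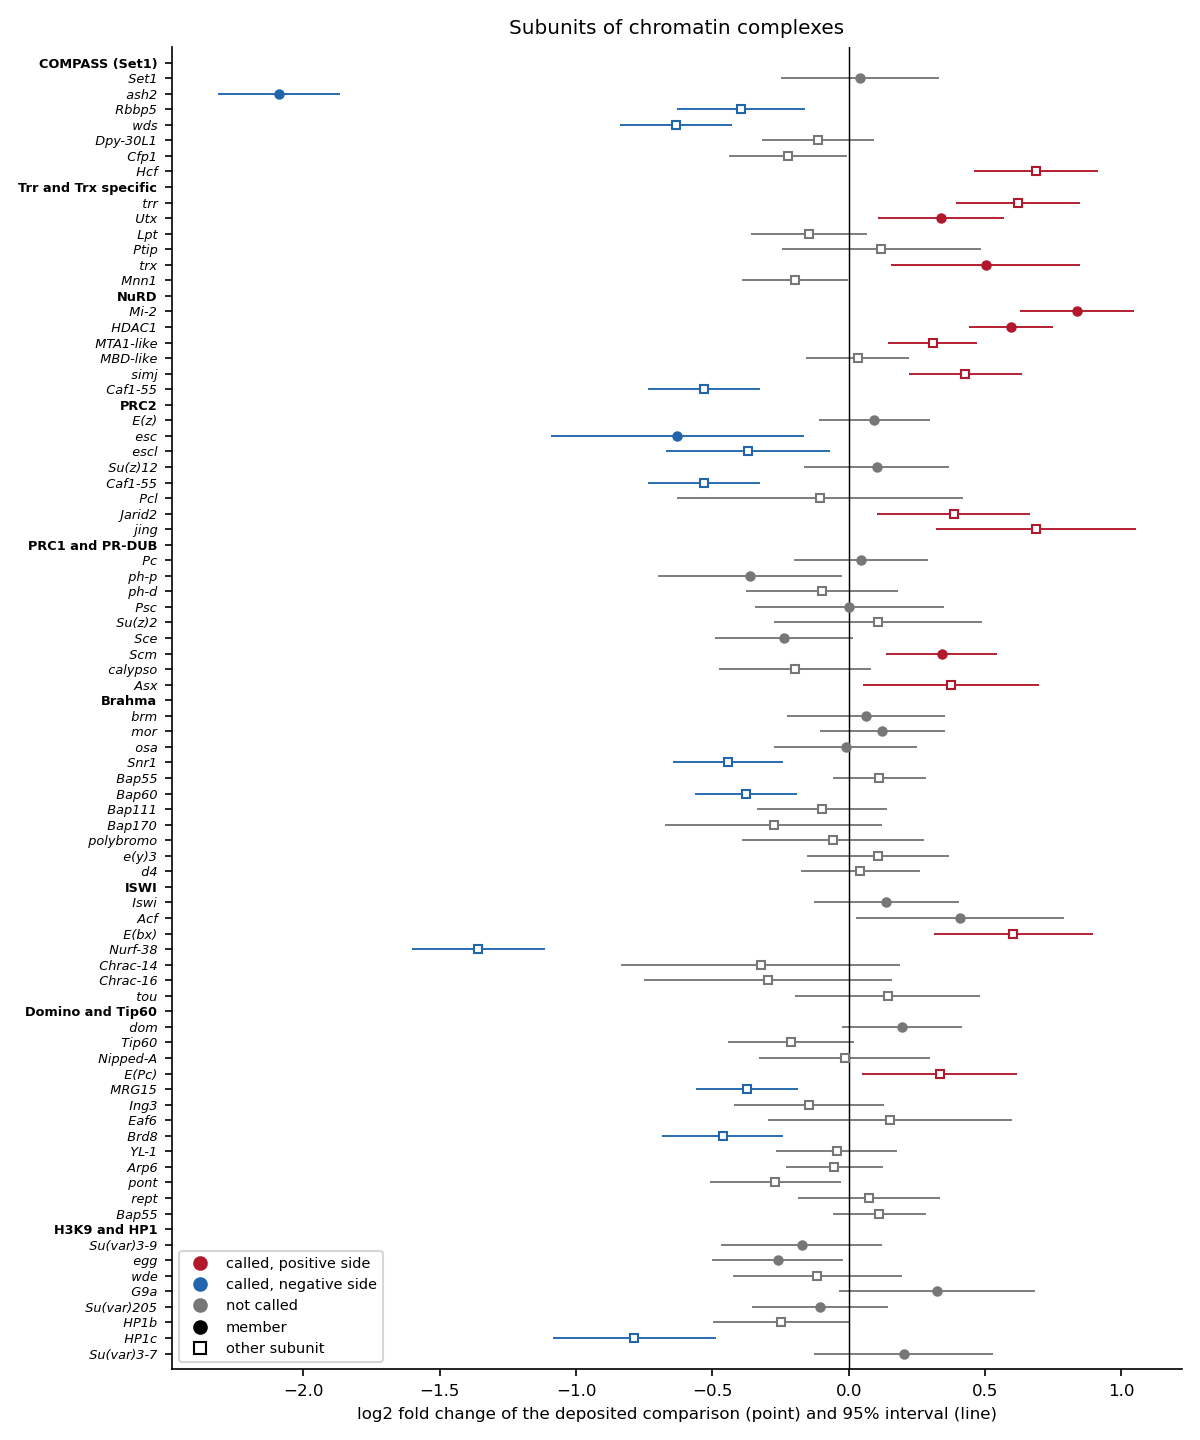
Log2 fold change (point) and 95% interval (line) for genes grouped by chromatin complex, with filled circles for genes among the 36 chromatin regulators and open squares for other subunits from separate lists. Within COMPASS ash2 is at -2.09 and Set1 at 0.04, and within NuRD 4 genes are called on the positive side while Caf1-55 is at -0.53.

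The 6 deacetylase and acetyltransferase genes gave 3 positive-side calls and 1 negative-side call, beside 27.0% and 22.0% of all genes tested. Centred on length, the calls were 2 positive and 3 negative. Besides HDAC1, the positive-side calls were HDAC4, a class IIa deacetylase that shuttles between nucleus and cytoplasm, and nej, the fly CBP acetyltransferase. HDAC4 had a log2 fold difference of 0.67 (SE 0.10, adjusted p = 2.84e-11) in the authors' deposited table, 1.59-fold higher on the positive side with an interval of 1.40 to 1.81. It lies on the X chromosome from 13262687 to 13285632 (FBgn0041210). nej stood at 0.45 (SE 0.17, adjusted p = 0.0183) in the deposited table, a call that was lost on centring on all genes (adjusted p = 0.0503) or on length (adjusted p = 0.618).

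Sirt6 and Sirt1 are sirtuins, deacetylases that use NAD. Sirt6 was the second lowest chromatin regulator, at a log2 fold difference of -1.01 (SE 0.28, adjusted p = 0.000944) in the authors' deposited table. This is 2.01-fold higher on the negative side with a wide interval of 1.38 to 2.93, at a low mean of 18.7 normalised counts. The gene (FBgn0037802) lies on chromosome 3R from 10255349 to 10261849. Sirt1 was just outside the threshold at -0.25 (SE 0.11, adjusted p = 0.0548) in the deposited table, and passed when genes with a mean under 10 were left out of the adjustment (adjusted p = 0.0487). It was called on the negative side under 5 of 9 alternatives, and stood at -0.60 (adjusted p = 1.51e-06) centred on length. In Sirt1, 13.4% of exonic bases overlap DnaJ-H on the other strand, and whether counting used strand is not given in the labels.

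HDAC6, the most abundant of these genes, had a log2 fold change of 0.00693 (SE 0.10) in the authors' deposited table, with a 95% interval from -0.18 to 0.20. Centred on the median of its length bin it was at -0.34 with an adjusted p of 0.00179, a change of sign that leaves its direction dependent on scaling. Its exons overlap those of the antisense RNA asRNA:CR44998 over 21.1% of their bases. A list of 27 other acetylation genes gave 4 positive-side and 7 negative-side calls, beside 27.0% and 22.0% of all genes tested. The median log2 fold change of the list was -0.08. The calls were 1 positive and 9 negative centred on all genes, and 0 positive and 10 negative centred on length. The class IV deacetylase HDAC11 was lowest at -1.43 (SE 0.18, adjusted p = 1.61e-13) and the acetyltransferase subunit gene Atac1 stood at -0.81 (SE 0.14) in the authors' deposited table. On the positive side the highest call of this list was msl-2, of the dosage compensation complex, at 0.44 (SE 0.14) there.

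Polycomb genes among the 36 were mostly not called. The calls were 1 of 3 PRC2 genes (33.3%) and 1 of 5 PRC1 and Scm genes (20%), beside 49.0% of all genes tested. In PRC2 the catalytic gene E(z) at a log2 fold difference of 0.09 (SE 0.10, adjusted p = 0.469) and Su(z)12 at 0.10 (SE 0.14, adjusted p = 0.553) did not pass in the authors' deposited table, and both intervals lay within a 1.5-fold change. The WD-repeat subunit gene esc was called on the negative side at -0.63 (SE 0.24, adjusted p = 0.0191) in the deposited table, at a mean of 22.1. Its paralogue escl was also called on the negative side at -0.37 (SE 0.15, adjusted p = 0.0343). The accessory PRC2 genes jing at 0.69 (SE 0.19) and Jarid2 at 0.38 (SE 0.14) were called on the positive side in the same table. With Caf1-55, the list of 5 other PRC2 genes gave 2 calls on each side (80% called, beside 49.0% of all genes tested). Centred on length, that list gave 0 positive and 2 negative calls. The esc call was lost at an adjusted p under 0.01.

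In PRC1, Pc, which binds methylated H3 through its chromodomain, stood at a log2 fold change of 0.04 (SE 0.13), the RING finger gene Psc at 0.00179 (SE 0.18) and the H2A ubiquitin ligase gene Sce at -0.24 (SE 0.13) in the authors' deposited table. None of these was called, and their 95% intervals lay within a 1.5-fold change. Sce was called on the negative side under 1 of 8 alternatives (adjusted p = 0.0357). ph-p was not called at -0.36 (SE 0.17, adjusted p = 0.0679) in the deposited table, but was called on the negative side under 3 of 8 alternatives, with -0.71 (adjusted p = 0.000191) centred on length. Its neighbouring paralogue ph-d, a tandem copy, stood at -0.10 (SE 0.14) in the deposited table, and whether reads were split between the pair was not tested, so both values are uncertain. Scm, which links the Polycomb complexes, was the PRC1-related gene that was called, at 0.34 (SE 0.10, adjusted p = 0.00305) in the deposited table. Relative to the median of its length bin Scm stood at -0.00255. A list of 11 other PRC1 and DNA-binding Polycomb genes gave 4 positive-side and 0 negative-side calls, beside 27.0% and 22.0% of all genes tested. The called genes included the DNA-binding factor cg at 0.48 (SE 0.10) and the O-GlcNAc transferase sxc at 0.45 (SE 0.07) in the authors' deposited table. After centring on length, 10 of that list had a value and gave 0 positive and 2 negative calls.

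None of the 5 heterochromatin genes was called in the authors' deposited table, beside 49.0% of all genes tested. HP1a had a log2 fold difference of -0.10 (SE 0.13, adjusted p = 0.51) in the authors' deposited table, with an interval from -0.35 to 0.14. The H3 lysine 9-type methyltransferase genes Su(var)3-9 at -0.17 (SE 0.15), egg at -0.26 (SE 0.12) and G9a at 0.32 (SE 0.18) were not called in the deposited table, nor was the zinc-finger gene Su(var)3-7 at 0.20 (SE 0.17). The intervals of 4 of the 5 lay within a 1.5-fold change, the exception being G9a. egg was called on the negative side under 3 of 8 alternatives, and stood at -0.60 (adjusted p = 5.46e-06) centred on length. The value of Su(var)3-9 is uncertain, as 14.8% of its exonic bases are shared on the same strand with eIF2gamma, a far more abundant gene at -0.96 (SE 0.08) in the deposited table. Genes on the opposite strand overlap 13.7% of the exonic bases of Su(var)3-7 (TBC1D5), and asRNA:CR44067 overlaps 629 exonic bases of egg. The 13 other heterochromatin genes with an adjusted p gave 3 negative-side and 0 positive-side calls, beside 22.0% and 27.0% of all genes tested. Among them, HP1c stood at -0.79 (SE 0.15) and vig at -0.57 (SE 0.08) in the authors' deposited table. Centred on length, the 13 gave 6 negative and 0 positive calls.

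Histone variant and histone chaperone genes, whose products are deposited in or handle the nucleosomes these enzymes act on, were a further list. The 18 genes gave 10 negative-side and 0 positive-side calls, with a median log2 fold change of -0.47 against 0.07 over all genes tested. The share called on the negative side among all genes was 22.0%. The lipid droplet histone anchor Jabba stood at -1.31 (SE 0.23) and the replacement histone gene His3.3B at -0.52 (SE 0.10) in the authors' deposited table. Centred on length, the calls were 11 negative and 0 positive. Of the germline markers 12 of 14 had a log2 fold change below 0, and of the eggshell markers 8 of 15, and their part in this was not tested.

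**Figure D3:**
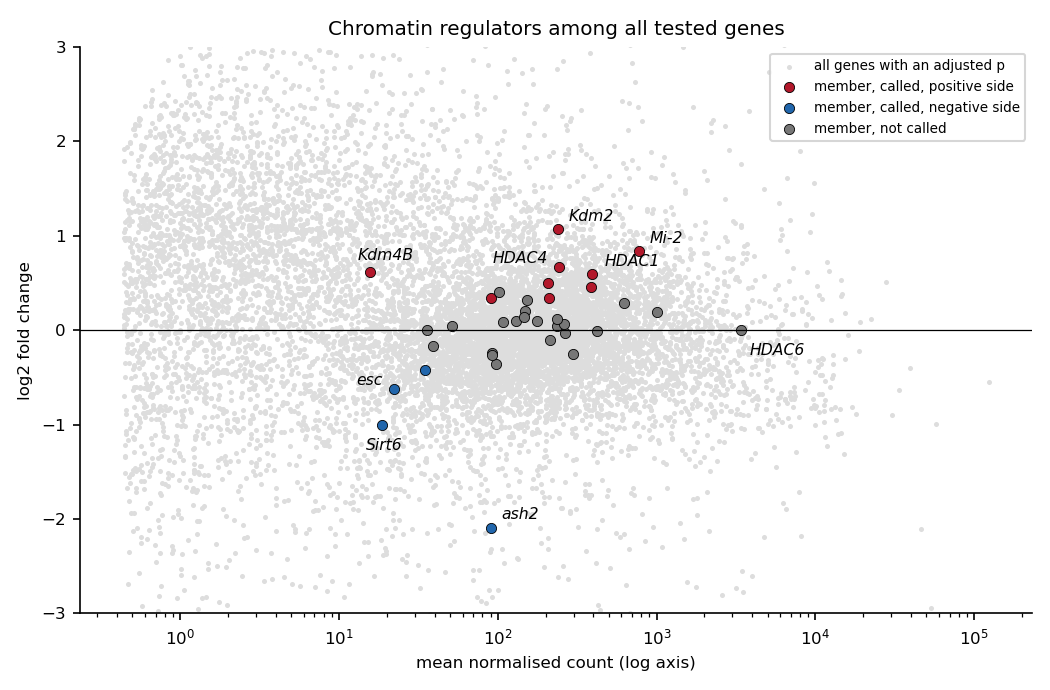
Log2 fold change against mean normalised count (log axis) for all genes with an adjusted p (grey, of which 210 lie beyond the vertical axis) and the 36 chromatin regulators (large points, coloured by call). ash2 at a mean of 90.7 and -2.09 is the lowest chromatin regulator, and HDAC6 at a mean of 3400 sits at 0.

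Transcript length moved with fold change, and chromatin regulators have long transcripts. Their median canonical transcript was 4767 bases, against 1837 over all genes tested. When the 11377 genes with a length were divided into 5 near-equal bins, the median log2 fold change from the authors' deposited table went from -0.12 in the shortest bin to 0.34 in the longest, which starts at 3467 bases. That longest bin held 2276 genes, with 985 positive-side calls (43.3%) and 166 negative-side calls (7.29%). It held 26 of the 36 chromatin regulators, which gave 8 positive-side and 0 negative-side calls, with a median of 0.17, below the 0.34 of the bin. The other 10 chromatin regulators had shorter transcripts, in bins 2 to 4 counted from the shortest, and gave 1 positive-side and 4 negative-side calls. Over all genes of those bins, in that order, the negative-side shares were 29.9%, 28.2% and 19.3%. The positive-side shares were 20.4%, 25.6% and 30.02%. Whether these 10 genes differ from others of like length was not tested. Transcript length and log2 fold change had a Spearman correlation of 0.50 over the 36 genes, 0.19 over the 11377 genes and 0.31 over the 8446 of these with a mean of at least 10, all as descriptions of genes that share the same libraries.

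Among the 13 called genes, 6 were called in the same direction under every alternative that gave them a value, namely ash2, Sirt6, Kdm2, Mi-2, HDAC1 and HDAC4. After centring on length, Kdm2 was at a log2 fold change of 0.73, Mi-2 at 0.49, HDAC4 at 0.33 and HDAC1 at 0.62 on the positive side, and ash2 at -2.07 and Sirt6 at -0.94 on the negative side. Of the 23 genes not called, 15 were called under none of the 9 alternatives.

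**Figure D4:**
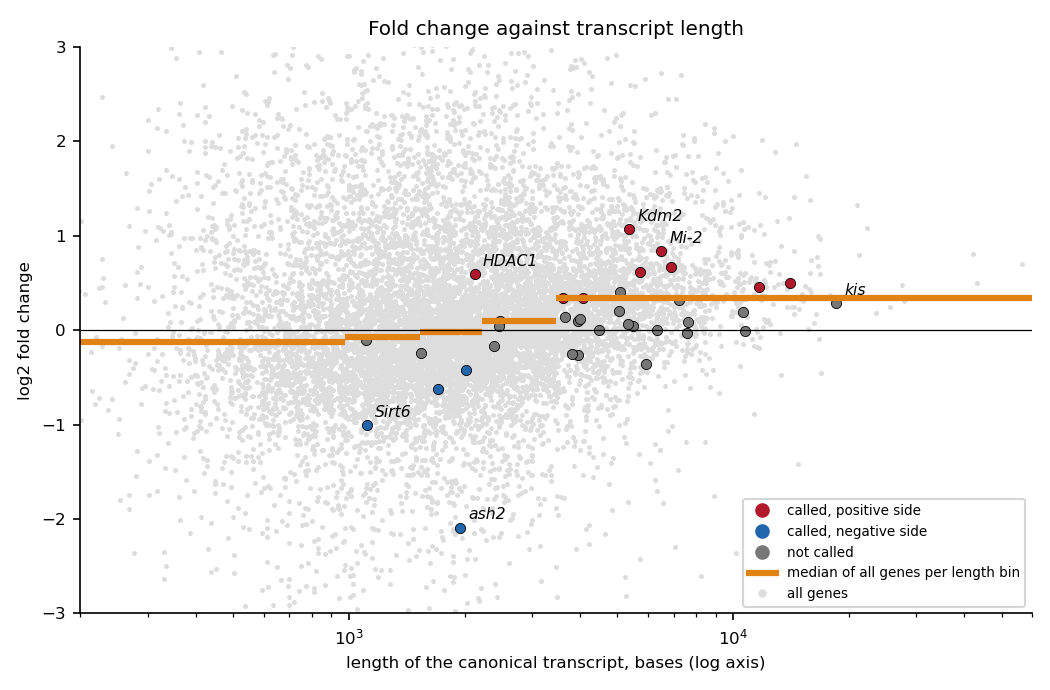
Log2 fold change against the length of the canonical transcript (log axis) for all genes with an adjusted p (grey, of which 331 lie beyond the axes), with the median of each of 5 length bins in orange and the 36 chromatin regulators as large points coloured by call. The orange median climbs from -0.12 to 0.34, and the 26 chromatin regulators in the longest bin have a median of 0.17.

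For the genes not called, the deposited errors set bounds on what could have been missed. The SE of the 36 genes ran from 0.08 for HDAC1 to 0.28 for Sirt6, with a median of 0.14 on the log2 scale. For 21 of the 36 (58.3%) the 95% interval lay wholly within a 1.5-fold change in either direction, against 28.4% of all genes tested and 38.3% of those with a mean of at least 10. These 21 comprise 19 of the 23 genes not called and the called genes Scm and Utx. For the other 4 genes not called, ph-p, G9a, Acf and kis, the interval reached past a 1.5-fold change. Centred on length, 20 of the 36 intervals lay within a 1.5-fold change, but these were not all the same genes. For example, egg and Sirt1, both at -0.60 so centred, left the bound. G9a at -0.02, Acf at 0.06 and kis at -0.06 entered it. Which genes are bounded therefore depends on scaling.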

How the data were processed

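Poly-A RNA of fat body was sequenced in 24 libraries, 6 in each of 4 groups taken from the labels. The submitters' processing notes name build dm6 and the tools DESeq2, Bowtie2, Picard, SAMtools, cutadapt, Trim Galore and FastQC. Not given in the sources used here are tool versions, the counter, strandedness and annotation. The authors deposited 1 table. Per the file headers it holds a mean normalised read count (a signal value with no error), a log2 fold change with its SE, a p-value, its adjusted p-value, and the test statistic (a score without fixed range). Checked on the values, the statistic is fold change over SE, and the adjusted p-values are Benjamini-Hochberg over 11399 genes. An adjusted p was empty for 1835 genes. The 4 groups could not be tested here, since the table holds no value per library. The 1 test is the authors' own, called at an adjusted p under 0.05. Its p-values set the fold change against its SE, which reflects the spread between libraries in their fit. That spread may be technical in part.

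Computed here, with Python 3.11.15, pandas 2.3.3 and scipy 1.17.1, were 95% intervals from the deposited SE, levels per kb of the canonical transcript, exon overlaps, and calls under 9 alternatives (thresholds, adjustments, filters on the mean, a 1.5-fold minimum, centring). Lengths and coordinates come from Ensembl release 115 (dm6 coordinates), in which 13203 gene symbols were matched. The companion genes PR-Set7, lid, JHDM2 and CG7154 were found by synonym. HP1a is the RefSeq synonym used here for FBgn0003607. The Wald and adjustment steps were tested on simulated data. The members and all lists were chosen with earlier results of these data known. Named were all members, up to 2 called genes per direction of each list of other chromatin genes by smallest adjusted p, and JHDM2, marker genes and further subunits of complexes chosen after their values were seen. No sequence file was used here.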

Additional observations from a re-analysis of the deposited data

How the results depend on the processing

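The counts of called chromatin regulators, 9 positive and 4 negative, were the same with adjustment over every gene with a p-value, and 9 and 5 with means of at least 10. They were 5 and 2 both at an adjusted p under 0.01 and with Benjamini-Yekutieli adjustment, 10 and 7 at 0.1, 7 and 1 with means of at least 100 (which leaves 24 of the 36 genes), 5 and 3 with at least a 1.5-fold change, 7 and 8 centred on all genes, and 4 and 10 centred on length. Over all genes, the share called was 41.2% adjusted over every gene with a p-value and 56.3% with means of at least 10. It was 38.2% at 0.01, 35.0% with Benjamini-Yekutieli, 55.6% at 0.1 and 58.6% with means of at least 100. It was 31.3% with at least a 1.5-fold change, 49.5% centred on all genes and 46.8% centred on length. For chromatin regulators the share ran from 19.4% to 47.2% over these settings. Without genes sharing 10% of exonic bases, an alternative added after seeing the data, the counts of called chromatin regulators were 8 and 4. For the other chromatin genes, 21 and 32 became 7 and 14 with at least a 1.5-fold change and 7 and 49 centred on length. The median of 0.09 became 0.17 with means of at least 100, 0.02 centred on all genes and -0.21 centred on length. With 99% intervals, 18 genes rather than 21 were within 1.5-fold.

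Centring on all genes turned Pc to -0.0279, Psc to -0.0710, Set1 to -0.0310, brm to -0.0090 and HDAC6 to -0.0658. Centring on length turned E(z) to -0.00245, Su(z)12 to -0.24, Pc to -0.0511, Psc to -0.34, Scm to -0.00255, ash1 to -0.26, Set1 to -0.30, Utx to -0.00366, Su(var)3-7 to -0.14, G9a to -0.0197, brm to -0.28, mor to -0.22, Iswi to -0.21, kis to -0.0598, dom to -0.15 and HDAC6 to -0.34. Of these, Scm and Utx were called before centring and HDAC6 after it. The cause was not tested. No paired analysis was possible because the table holds no value per library, which also prevents leaving out libraries. A mean count under about 20, as in Sirt6 and Kdm4B, limits precision through its SE.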

Other observations

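Insulator proteins, which bind boundaries between chromatin domains, were measured as a further list of 10 genes. They gave 1 positive-side and 1 negative-side call, beside shares of 27.0% and 22.0% over all genes tested, and 2 on each side of 9 genes centred on length. CTCF had a log2 fold difference of 0.66 (SE 0.11, adjusted p = 2.51e-08) and the promoter-binding factor M1BP at -0.38 (SE 0.08, adjusted p = 1.84e-05) in that deposited table. For 9 of the 10 the 95% interval lay within a 1.5-fold change, CTCF being the exception.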
